A study of Rattus norvegicus with 24 samples.

Results

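Oxidative phosphorylation genes were examined in the kidneys of rats given a diet high in salt and fat. Members were chosen by a rule on names that used no measured value, though earlier results of these data were known. The rule took every probe set whose single gene symbol matched the naming of subunits of complexes I to V. Cox10 to Cox19 were left out as assembly factors. This gave 92 probe sets for 87 genes, of 15866 probe sets and 10410 genes with 1 symbol on the array. Of the 87 genes, 77 encode subunits and 10 matched by name only, among them assembly factors (Ndufaf3, Ndufaf4, Ndufaf5, Ndufaf7, Ndufaf8, Cox20), the ATP synthase inhibitor Atp5if1, the supercomplex factor Cox7a2l, the Ndufa4 paralogue Ndufa4l2 and the pseudogene Cox6c-ps1. Ndufa4 was counted with complex IV, where it is now placed.

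All 24 animals were male stroke-prone spontaneously hypertensive rats (SHR-SP), an inbred hypertensive strain whose kidneys are injured further by a salty diet. From 11 weeks of age they had either powdered chow and water, the normal diet, or chow with 24.5% fat together with 1% NaCl in the drinking water, here the salt-fat diet. Kidneys were taken after 2 or 8 weeks on the diet, from 6 animals in each of the 4 groups, with 1 Affymetrix array per animal. Salt and fat were never given apart, no normotensive strain was included, and whole kidney was used, so that fewer cells of a type and less RNA per cell cannot be told apart.

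Oxidative phosphorylation couples the oxidation of NADH and succinate to the synthesis of ATP at the inner mitochondrial membrane. Complex I takes electrons from NADH and complex II from succinate, complex III passes them to cytochrome c, complex IV reduces oxygen, and complex V makes ATP from the resulting proton gradient. Most subunits are encoded in the nucleus. Complexes I, III, IV and V also include subunits encoded by mitochondrial DNA, which is transcribed separately as long polycistronic RNAs. In the kidney the pathway powers salt reabsorption, above all in the mitochondria-rich proximal tubule and thick ascending limb.

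Probe sets were tested if their signal lay above the 40th percentile of its array in at least 6 of 24 arrays. This kept 85 of the 92 member probe sets and 82 of the 87 genes, of which 73 were subunits: 34 of complex I, 4 of complex II, 7 of complex III, 11 nuclear and 2 mitochondrially encoded of complex IV, and 15 of complex V. The mitochondrially encoded members were COX1 and COX2, the core subunits of cytochrome c oxidase that carry its heme and copper centers. No probe set had as its single symbol any other gene of mitochondrial DNA on a list of such symbols, so both encoded members belong to 1 complex. Differences are in log2(signal + 7.21) ± SE, which understates the change of weak signals, and a probe set was called at an adjusted p under 0.05 (limma, Benjamini-Hochberg over the 10200 probe sets tested). Where a gene had several probe sets, the one with the brightest mean stood for it.

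Of the members that passed the filter, COX1 had the largest differences in both diet comparisons and in the interaction defined below, lower on the salt-fat diet at 2 weeks and higher at 8 weeks, where the call was the less stable. Below the filter, Cox8b had larger values at 8 weeks and for the interaction, which were not called and are given with the isoforms. At 2 weeks the COX1 signal ran from 4637 to 6312, median 4963, on the normal diet. On the salt-fat diet it ran from 1818 to 3040, median 2235, so that the groups did not overlap. The difference was -1.20 ± 0.16 (adjusted p = 2.2e-05 by limma), lower in 6 of 6 animals than in any control. At 8 weeks the normal-diet signals were 3154 to 8425, median 4120, and the salt-fat signals 5053 to 7457, median 6162. There the difference was 0.52 ± 0.16 in the other direction (adjusted p = 0.040 by limma), and the groups overlapped only through normal-diet animal 5, at 8425, since the other normal-diet animals lay at or below 4255. Without that animal the difference was 0.71, and the call at 8 weeks was lost when any of 10 of the 24 arrays was left out. It was kept under 6 of 15 other settings, with an adjusted p of 0.022 to 0.36 over the 15, and was lost with median centring, without a filter, without the variance trend, with robust variances, array weights, the replicate block or only the groups compared, with the spike-in covariate and without normal-diet arrays 1 and 2. Its sign was positive under all 15.

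The change of the diet difference between 2 and 8 weeks, here the interaction, was 1.72 ± 0.23 for COX1 (adjusted p = 0.000306 by limma). It was called with each array left out in turn, at 1.63 to 1.91. Within the salt-fat diet COX1 was higher at 8 than at 2 weeks by 1.46 ± 0.16 (adjusted p = 4.1e-06 by limma), without overlap. Within the normal diet the difference between the times was -0.26 ± 0.16, which did not pass the test (adjusted p = 0.67 by limma). All of these comparisons share groups of arrays and are not independent of one another.

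With the settings above COX2 did not pass the test in any comparison. At 2 weeks its signal was 7522 to 8461, median 7931, on the normal diet and 5282 to 7937, median 6190, on the salt-fat diet, a difference of -0.31 ± 0.10 (adjusted p = 0.050 by limma, just above the threshold). Of the 6 animals on the salt-fat diet, 4 lay below every control and 2 lay within their range. The 2-week difference was called under 5 of 15 other settings, with an adjusted p of 0.011 to 0.75 by limma over the 15. It was also called when any of 4 of the 24 arrays was left out. At 8 weeks the ranges were 5691 to 9251 and 6503 to 7584, with a difference of 0.03 ± 0.10 (adjusted p = 0.90 by limma).

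COX1 and COX2 arise from the same polycistronic transcript, so their log2 difference within each array is given as a description, with no test, since it was chosen after both were seen. COX1 minus COX2 was -0.61 ± 0.19 (SD, n = 6) in the 2-week controls and -1.51 ± 0.26 in the 2-week salt-fat animals, and -0.72 ± 0.36 and -0.23 ± 0.17 in the same order at 8 weeks. A difference between a pair of probe sets shows unequal change and not that either stayed constant. Only 2 probe sets had a higher mean signal than COX2, whose highest signal was 82.4% of the highest of any probe set, against 22 probe sets and 75% for COX1. Whether COX2 was near the upper limit of the array was not tested.

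**Figure D1:**
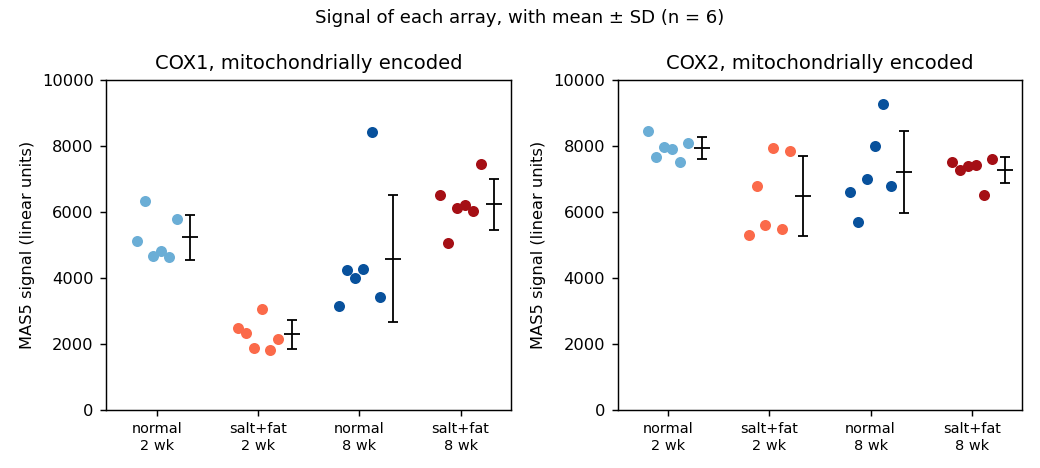
MAS5 signal (linear units) of COX1 and COX2 on every array by group, with the mean ± SD of 6 arrays beside the points. The COX1 signals of the 2-week salt-fat group (1818 to 3040) lie below all others, and 1 normal-diet array at 8 weeks lies at 8425.

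Of the measures taken per array, the spike-in level and a fat index from Fabp4, Cfd and Car3 had diet differences of the same sign as COX1. The group means of the fat index were 0.90 and -0.82 at 2 weeks and -0.15 and 0.08 at 8 weeks, normal diet first. Those of the spike-in level were 0.17 and -0.13 at 2 weeks and -0.13 and 0.10 at 8 weeks, in the same order. The mean centred log2 signal of the hybridization spike-ins was 0.08 to 0.24 on the 2-week normal-diet arrays, -0.43 to 0.07 on the 2-week salt-fat arrays, -0.44 to 0.26 on the 8-week normal-diet arrays and 0.01 to 0.19 on the 8-week salt-fat arrays. With the spike-in level as a covariate COX1 was still called at 2 weeks (-0.89, adjusted p = 0.0025 by limma), while at 8 weeks (0.27, adjusted p = 0.36) and for the interaction (1.16, adjusted p = 0.13) it was not. Over the 15 other settings its 2-week adjusted p ran from 8.3e-06 to 0.0025, and over 14 for the interaction from 0.0002 to 0.13. The GAPDH control probe sets, read as 3' over 5' signal for RNA quality, gave 1.13 to 1.40 on the 2-week salt-fat arrays and 0.97 to 1.18 on the 2-week normal-diet ones, and 1.07 to 1.33 and 1.09 to 1.26 at 8 weeks. At 8 weeks the medians of this ratio were 1.14 on both diets. With this ratio as a covariate the COX1 difference was -1.29 at 2 weeks (adjusted p = 0.00019 by limma) and 0.51 at 8 weeks (adjusted p = 0.042), both called. With the fat index as a covariate COX1 was called in both diet comparisons and for the interaction. What part the spike-in level or the fat index had in these differences was not tested.

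COX1 and COX2 were among the brightest probe sets of the array, so they were also set beside others of high signal. Of 197 tested probe sets with a mean log2 signal above 11, a border chosen after the values were seen, the median difference at 2 weeks was -0.15 and 10.7% were above 0. None of the 197 had a lower value than COX1 at 2 weeks or a higher one for the interaction, whereas 37 lay lower than COX2 at 2 weeks. The COX2 value therefore lay within the general range of bright probe sets, and after quantile normalization it was -0.05, against -1.04 for COX1.

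Among the nuclear subunits differences were small. Their within-group SD had a median of 0.129 on the log2 scale, against 0.196 over all probe sets tested. Of all 85 member probe sets 5 were called at 2 weeks, 4 higher (Ndufa2, Ndufa7, Ndufb7, Ndufs7) and 1 lower (COX1), where 8.75% of all tested probe sets were called, 4.55% higher and 4.2% lower. At 8 weeks 3 were called, 1 higher (COX1) and 2 lower (Ndufs1, Sdhd), against 9.15% of all probe sets, 5.64% higher and 3.51% lower. The shares of members called were thus near or below the background in both diet comparisons.

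For the interaction the only member called was COX1, where 0.382% of all probe sets were called, 0.343% higher and 0.0392% lower. Between 2 and 8 weeks on the normal diet 0 members were called, with 7 of 85 (8.24%) at an unadjusted p under 0.05 beside 8.52% of all probe sets, and 0.0392% of all probe sets were called. On the salt-fat diet 3 members were called over the same interval (COX1 higher, Ndufs1 and Ndufc1 lower), against 3.53% of all probe sets, 2.23% higher and 1.3% lower.

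Complex I, the largest of the complexes, had 29 of 34 tested genes above 0 at 2 weeks, with a median of 0.10, where 53.4% of all probe sets lay above 0 with a median of 0.02. The 4 genes called higher at 2 weeks all belong to it, and all had differences of under 0.3. Ndufs7, a core subunit that holds the last iron-sulfur cluster before ubiquinone, had signals of 840 to 942, median 857, on the normal diet and 957 to 1075, median 999, on the salt-fat diet, which did not overlap. Its difference was 0.22 ± 0.07 (adjusted p = 0.042 by limma). Ndufa7, an accessory subunit, ran from 509 to 583 and from 586 to 652, again without overlap, a difference of 0.21 ± 0.06 (adjusted p = 0.035 by limma). These were the 2 of 71 nuclear subunits without overlap at 2 weeks. Of all probe sets tested 4.85% had none, so the share of subunits was not above the background. The groups of the accessory subunits Ndufb7 (431 to 525 against 498 to 645; 0.29 ± 0.09, adjusted p = 0.042 by limma) and Ndufa2 (357 to 403 against 388 to 526; 0.26 ± 0.08, adjusted p = 0.049 by limma) overlapped. Each of these 4 calls lay close to the threshold and was lost when single arrays were left out, in 9 of 24 cases for Ndufs7, Ndufa7 and Ndufb7 and in 18 of 24 for Ndufa2. After quantile normalization Ndufs7 and Ndufa7 were still called and Ndufb7 and Ndufa2 were not. Of 15 other settings, 8 kept the call of Ndufs7, 9 that of Ndufa7, 8 that of Ndufb7 and 5 that of Ndufa2. All 4 calls were lost with median centring, without the variance trend, and with the spike-in level, the GAPDH ratio or a fat index as a covariate.

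At 8 weeks 12 of 34 complex I genes lay above 0, with a median of -0.03 beside 0.00 for all probe sets. Ndufs1, the largest core subunit, with iron-sulfur clusters of the hydrophilic arm, was the one called. It ran from 522 to 669, median 597, on the normal diet and from 379 to 556, median 496, on the salt-fat diet. The difference was -0.32 ± 0.08 (adjusted p = 0.014 by limma), with partial overlap, and the call was kept under all 15 other settings and with any array left out except salt-fat animal 1, without which the adjusted p was 0.051. At 2 weeks its difference was -0.06 ± 0.08, and the interaction did not pass the test (-0.26 ± 0.12, adjusted p = 0.39 by limma), so a change of its diet difference with time was not shown. Ndufb8, an accessory subunit, had the largest value of the complex at 8 weeks, -0.41 ± 0.18, and did not pass the test (adjusted p = 0.17 by limma), with signals of 141 to 270 against 119 to 176.

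Between 2 and 8 weeks on the salt-fat diet all 34 tested complex I genes lay below 0, with a median of -0.13, where 50.2% of all probe sets lay above 0. The other complexes leaned the same way, with 4 of 4 genes of complex II, 6 of 7 of complex III, 6 of 11 of complex IV and 12 of 15 of complex V below 0, which makes 62 of 71 nuclear subunits. After quantile normalization 69 of 71 lay below 0, among them 11 of 11 of complex IV. Only Ndufs1 (-0.33 ± 0.08, adjusted p = 0.021 by limma) and Ndufc1 (-0.27 ± 0.07, adjusted p = 0.023) were called, and 12 of the 34 genes (35.3%), all lower, had an unadjusted p under 0.05, where 17.0% of all probe sets did and 7.99% were lower. Ndufc1, a small accessory subunit, ran from 875 to 1004 at 2 weeks and from 620 to 881 at 8 weeks, overlapping slightly. Of 15 other settings 12 kept the call of Ndufs1 and 13 that of Ndufc1. Each was kept in 21 of 24 cases with a single array left out. The median complex I value was -0.12 after quantile normalization and -0.18 with each array centred on its median. As a level per array, the mean of the gene-centred log2 signals, complex I was 0.01 to 0.20 in the 2-week salt-fat group and -0.10 to 0.09 in the 8-week one, where animal 2 at 0.09 stood apart from the other 5, all below 0. The normal-diet groups lay at -0.07 to 0.06 and -0.08 to 0.04. The complex I differences at 2 weeks and over time both rest on the 2-week salt-fat arrays.

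**Figure D2:**
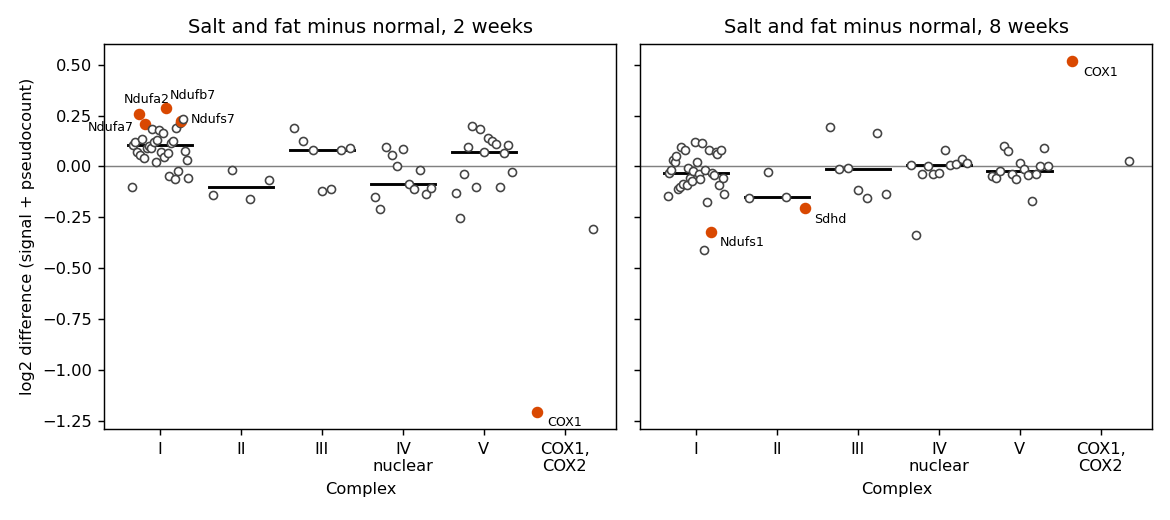
Difference in log2(signal + pseudocount), salt-fat minus normal diet, of each tested subunit gene (1 point each) at 2 and 8 weeks by complex, with COX1 and COX2 apart. Bars are medians of the nuclear subunits and filled, named points were called; most complex I genes lie slightly above 0 at 2 weeks and all complex II genes lie below 0 at both times.

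Complex II is encoded wholly in the nucleus and also forms part of the citrate cycle. All 4 subunits lay below 0 at both times, with medians of -0.10 at 2 and -0.15 at 8 weeks. Sdhd, a membrane anchor, was called at 8 weeks: its signals were 1648 to 2110, median 1916, on the normal diet and 1527 to 1782, median 1592, on the salt-fat diet, which overlapped. The difference was -0.20 ± 0.06 (adjusted p = 0.036 by limma), and it was no longer called with any of 8 of the 24 arrays left out. Of 15 other settings 10 kept the call, with an adjusted p of 0.016 to 0.098 over the 15. A second probe set for Sdhd gave -0.18 ± 0.09, which did not pass the test (adjusted p = 0.22). The flavoprotein subunit Sdha, which oxidizes succinate, ran from 1397 to 1719 against 1225 to 1577 at 8 weeks (-0.15 ± 0.06, adjusted p = 0.11 by limma), and had -0.14 ± 0.06 at 2 weeks. The other anchor, Sdhc, had -0.16 ± 0.08 and -0.15 ± 0.08, and the iron-sulfur subunit Sdhb had -0.02 ± 0.08 and -0.03 ± 0.08. The 2-week median was -0.02 after quantile normalization, with 2 of 4 genes above 0, whereas the 8-week median was then -0.13 with 0 of 4.

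Nuclear respiratory genes are known targets of NRF1, of the ETS factor GABPA and of the estrogen-related receptors, so the promoters of the members were searched for their core motifs. Of 75 nuclear subunit genes, 68 had a RefSeq window (GRCr8) of 250 bases before to 50 after the start. The GABPA core CCGGAAG, on either strand, was present in 20 of 68 windows (29.4%), against 15.9% of the 8611 array genes with a window and 9.63% of all 27457 genes in the table. The NRF1 core GCGCATGCG was present in 5 (7.35%), against 2.94% and 1.7%, and the estrogen-related receptor site TCAAGGTCA in 2 (2.94%; Sdhd and Atp5mc3), against 0.197% and 0.441%. The motifs do not overlap one another, and a match is a run of letters and not a known binding site. Of the 7 nuclear genes called in a comparison, 4 had the GABPA core: Ndufa2 and Ndufb7, higher at 2 weeks, and Ndufs1 and Sdhd, lower at 8 weeks. A shared core thus stood in promoters of genes with differences of either sign. Ndufb7 (19:41477242-41477541, minus strand), Ndufs1 (9:72073556-72073855, minus strand) and Sdhd (8:59850592-59850891, minus strand) are shown, from 5′ to 3′ along the gene, with matches in capitals (CCGGAAG or its reverse complement, and in Sdhd also the receptor site at the right end).
Ndufb7: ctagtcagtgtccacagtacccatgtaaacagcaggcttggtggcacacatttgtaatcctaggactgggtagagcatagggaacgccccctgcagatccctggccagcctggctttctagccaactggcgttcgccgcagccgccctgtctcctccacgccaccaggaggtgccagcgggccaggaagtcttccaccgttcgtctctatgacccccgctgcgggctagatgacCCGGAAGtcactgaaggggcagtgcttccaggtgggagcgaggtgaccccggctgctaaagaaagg
Ndufs1: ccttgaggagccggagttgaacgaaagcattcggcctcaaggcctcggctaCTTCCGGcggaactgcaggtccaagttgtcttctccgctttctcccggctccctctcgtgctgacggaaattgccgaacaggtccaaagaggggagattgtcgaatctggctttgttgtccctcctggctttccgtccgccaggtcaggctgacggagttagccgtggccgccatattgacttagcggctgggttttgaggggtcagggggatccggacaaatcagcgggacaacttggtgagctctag
Sdhd: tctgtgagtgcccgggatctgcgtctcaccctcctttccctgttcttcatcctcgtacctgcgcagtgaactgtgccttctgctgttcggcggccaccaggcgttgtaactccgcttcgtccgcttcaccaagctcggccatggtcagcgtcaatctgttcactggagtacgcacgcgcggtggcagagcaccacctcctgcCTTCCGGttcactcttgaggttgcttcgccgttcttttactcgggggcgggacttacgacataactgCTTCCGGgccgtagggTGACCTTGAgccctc

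Complex III had 5 of 7 genes above 0 at 2 weeks and 2 of 7 at 8 weeks, and none was called. At 2 weeks all 4 accessory subunits (Uqcr10, Uqcr11, Uqcrh, Uqcrq) lay above 0, from 0.08 to 0.19, while Uqcrc2 and the Rieske iron-sulfur protein Uqcrfs1 had -0.12 ± 0.06 and -0.11 ± 0.07. The largest value was that of Uqcr10, a small subunit near cytochrome c1, at 0.19 ± 0.12 (1266 to 2131 against 1705 to 2163) and 0.20 ± 0.12 at 8 weeks. The groups overlapped widely in both cases.

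Nuclear complex IV subunits did not follow COX1. Of 11 tested, 4 lay above 0 at 2 weeks, with a median of -0.09 that turned to 0.08 after quantile normalization (10 of 11 above 0). At 8 weeks the median was 0.01, or -0.01 after quantile normalization. The regulatory subunit Cox4i1 had -0.15 ± 0.08 and 0.01 ± 0.08 at the 2 times, and Cox5a and Cox5b, which like Cox4i1 surround the core, had 0.10 ± 0.13 and 0.05 ± 0.07 at 2 weeks. None of the 11 was called in any of the 5 comparisons. COX1 minus the mean level of all nuclear subunits, each centred on its gene mean, was 0.17 to 0.60 on the normal diet at 2 weeks and -1.25 to -0.54 on the salt-fat diet. At 8 weeks the corresponding ranges were -0.39 to 0.93 and 0.20 to 0.91.

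Complex V had 9 of 15 genes above 0 at 2 weeks and 6 of 15 at 8 weeks, and none was called in any comparison. The catalytic subunit Atp5f1b had the largest value at 2 weeks, -0.25 ± 0.09 (6527 to 7202 against 4693 to 7100; adjusted p = 0.089 by limma), which was 0.00 after quantile normalization. Small subunits of the membrane part lay above 0 in 5 of 6 cases at 2 weeks, with Atp5me at 0.18 ± 0.08, while the c-ring gene Atp5mc3 had -0.10 ± 0.07. At 8 weeks the largest value was that of the small membrane subunit Atp5mpl, -0.17 ± 0.07 (adjusted p = 0.10 by limma). Atp5if1, which inhibits ATP hydrolysis by the complex and is not a subunit, had 0.00 ± 0.10 and -0.01 ± 0.10.

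**Figure D3:**
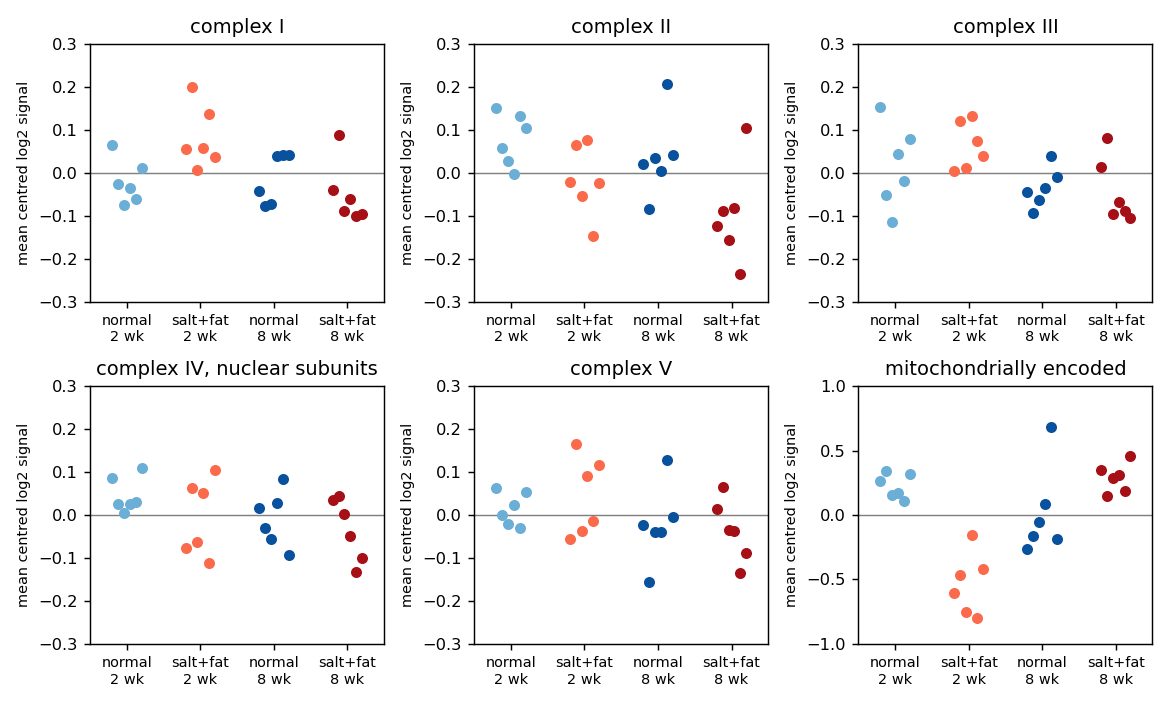
Mean gene-centred log2 signal of each complex on every array by group, nuclear subunits only except in the last panel, whose axis is wider. The nuclear complexes vary between -0.24 and 0.21 and overlap between groups, whereas the mitochondrially encoded pair runs from -0.80 to 0.69.

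The sign of a nuclear subunit's difference at 2 weeks went with its brightness. Of 15 subunits with a mean log2 signal above 11, 1 lay above 0, with a median of -0.10. Of the 56 dimmer ones 46 lay above 0, with a median of 0.09. Within complex V the counts were 0 of 6 bright and 9 of 9 dimmer genes above 0, within complex I 0 of 2 and 29 of 32, and within complex IV 1 of 6 and 3 of 5. All 4 complex II genes were on the dimmer side of the border and below 0.

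Bright probe sets in general shared this direction, as given above beside COX1. After quantile normalization every one of the bright genes in complexes I, III, IV and V lay above 0, and 64 of 71 nuclear subunits did, against 47 before. That scaling called 9 nuclear subunits higher at 2 weeks (Ndufa7, Ndufs6, Ndufs7, Uqcr11, Cox5b, Atp5f1e, Atp5mg, Atp5mk, Atp5pf). With arrays centred on their median the counts above 0 remained 29 of 34 for complex I and 4 of 11 for complex IV. The difference in sign between the medians of complexes I and IV at 2 weeks thus stood on the deposited and the median-centred scale and not after quantile normalization. Why the scalings differ was not tested. Across the 71 genes the correlation of mean log2 signal with the difference was -0.36 for the diet difference at 2 weeks, 0.36 for that at 8 weeks and -0.66 for time on the normal diet, values that describe genes sharing the same arrays.

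**Figure D4:**
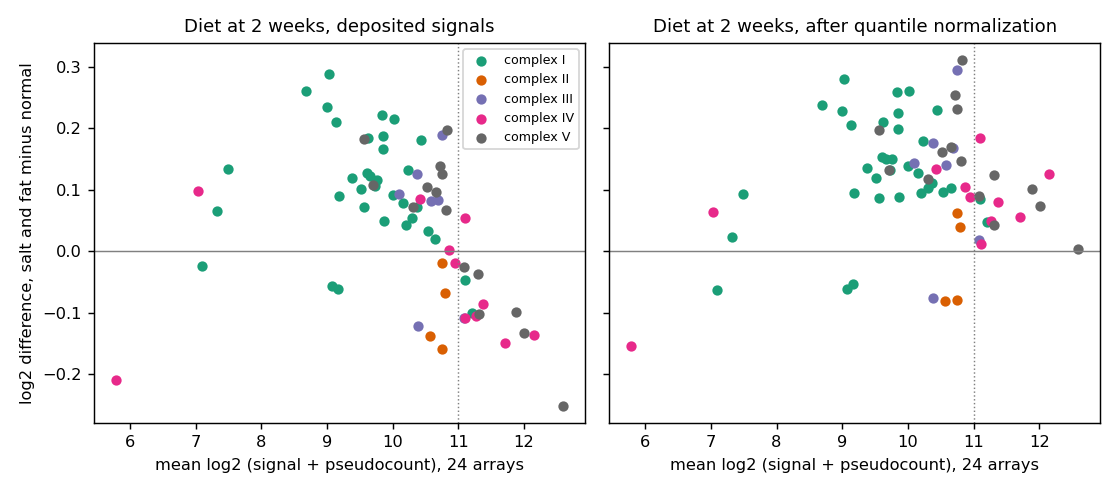
Difference at 2 weeks of each of the 71 nuclear subunit genes against its mean log2 signal over 24 arrays, for the deposited signals and after quantile normalization. On the deposited scale 1 of 15 genes right of the dotted line at 11 lies above 0, and after quantile normalization all 15 do.

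Several subunits exist as tissue isoforms, and the muscle-type forms lay mostly below the filter in kidney. Cox6a2 (4.4 to 30.1 over all arrays) and Cox6b2, the testis form (0.9 to 15.7), were low throughout, and their broadly expressed counterparts Cox6a1 and Cox6b1 had differences of 0.00 ± 0.07 and 0.08 ± 0.07 at 2 weeks and -0.04 ± 0.07 and -0.03 ± 0.07 at 8 weeks. Cox4i2, the lung isoform of Cox4i1, lay just above the filter, with signals of 27.2 to 87.9 and no call in any comparison. Ndufa4l2 ran from 14.7 to 43.7.

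Cox8b, the isoform of heart, muscle and brown fat that stands in for Cox8a, varied most. Its signal was 1.1 to 4.4 on the 2-week salt-fat arrays and 1.5 to 5.9 on the 8-week normal-diet arrays, but 5.8 to 55.1 on the 8-week salt-fat arrays. On the 2-week normal-diet arrays it was 70.5 and 41.7 in animals 1 and 2 and at most 4.9 in the other 4. Without the filter its 8-week difference was 1.41, which did not pass the test (adjusted p = 0.0501 by limma over 15866 probe sets). Cox8a itself, at 0.04 ± 0.09, was not called.

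Of the 3 brown fat markers that passed the filter, Ucp1 and Cidea were called higher at 8 weeks beside Cox8b, and Ppargc1a was not called. Ucp1, the uncoupling protein of brown adipocytes, was 36.3 to 162.2 on the 8-week salt-fat arrays and 13.7 to 41.4 on the normal-diet ones (1.5 on the log2 scale, adjusted p = 0.023 by limma), and 197.6 and 150.8 in the same 2 animals of the 2-week normal-diet group. Cidea, a lipid droplet protein of brown fat, was 125.3 to 174.3 against 36.3 to 78.0 at 8 weeks (1.28, adjusted p = 0.00081 by limma). Ppargc1a, a coactivator that tubule cells express too, had 63.6 to 120.0 against 68.8 to 117.9 (-0.17, adjusted p = 0.57 by limma). Of the 6 listed brown fat markers on the array these 3 passed the filter. The summed signal per array of all 6, Cox8b and Cox7a1 among them, was 287.5 to 510.3 against 178.1 to 258.8 at 8 weeks. Cox7a1, the muscle and brown fat isoform, had signals of 6.7 to 36.6 against 5.6 to 54.6 and did not pass the test. What part fat attached to the tissue had in the Cox8b signal was not tested.

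**Figure D5:**
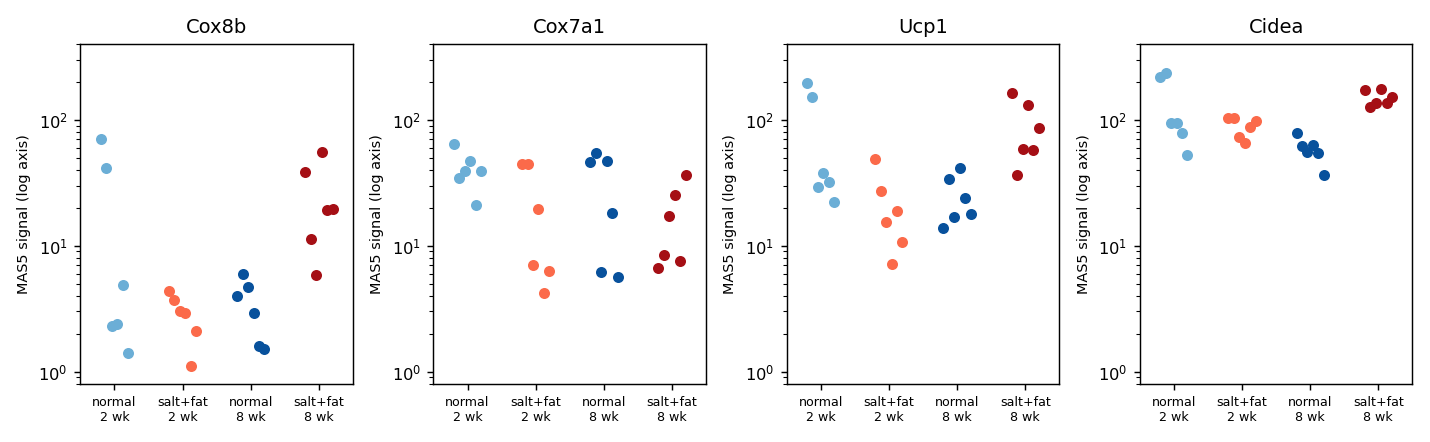
MAS5 signal on a log axis of the isoform genes Cox8b and Cox7a1 and of the brown fat markers Ucp1 and Cidea on every array by group. Cox8b and Ucp1 run higher in the 8-week salt-fat group than in the 8-week normal-diet group, with overlap. Both are also higher in 2 of the 6 normal-diet animals at 2 weeks than in the others of that group. Cox8b lay below the filter and was not called.

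Tubule markers changed in the same kidneys. Of 15 proximal tubule markers 15 lay below 0 at 2 weeks and 10 were called lower, with a median of -0.33, and their summed signal was 40549 to 43632 on the normal diet and 29801 to 37759 on the salt-fat diet, without overlap. At 8 weeks 5 were called lower, and the sums were 34582 to 44045 against 30605 to 36401. Thick ascending limb markers were called higher in 4 of 8 cases at 2 weeks and in 2 of 8 at 8 weeks. Of 10 collecting duct markers 6 were called higher and 1 lower at 2 weeks, with a median of 0.49, and their sums were 3798 to 4454 on the salt-fat and 2655 to 3090 on the normal diet, without overlap. At 8 weeks 4 were called higher and 1 lower, with a median of 0.23. Of 4 distal convoluted and connecting tubule markers 1 was called lower at 2 weeks and 2 at 8 weeks. The median nuclear subunit, in comparison, had 0.07 at 2 and -0.03 at 8 weeks. These were far smaller than the medians of the proximal tubule, thick ascending limb and collecting duct markers. The distal convoluted and connecting tubule markers had medians of -0.09 at 2 weeks, of similar size, and -0.21 at 8 weeks. At 8 weeks 6 of 7 matrix and 4 of 8 macrophage markers were called higher. Adipocyte markers were called lower in 5 of 5 cases at 2 weeks. The normal-diet arrays varied widely there. The summed signal of the 7 adipocyte markers on the array was 512.9 to 4730.6 on the normal and 290.9 to 514.4 on the salt-fat diet. At 8 weeks 0 of 5 were called, with a median of 0.23. The part of these shifts in cell makeup in the subunit values was not tested.

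Genes around the respiratory chain were taken from lists by function. Beside the counts of calls in these lists, 4.55% of all probe sets were called higher and 4.2% lower at 2 weeks. At 8 weeks the shares were 5.64% and 3.51%. Of 16 citrate cycle genes, which feed NADH and succinate to the chain, 12 lay below 0 at 2 weeks and 13 at 8 weeks, with medians of -0.08 and -0.12. Called lower were Suclg2, a subunit of succinyl-CoA ligase (-0.25 ± 0.06, adjusted p = 0.0063 by limma), and the pyruvate dehydrogenase kinase Pdk4 (-0.87 ± 0.23, adjusted p = 0.017) at 2 weeks, and Pdk2 at 8 weeks (-0.33 ± 0.09, adjusted p = 0.018). Both kinases restrain the entry of pyruvate rather than carry the cycle. Electron carriers and entry points, 12 genes, were called in neither diet comparison.

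Of 23 assembly factors, 20 lay below 0 at 8 weeks with a median of -0.10, and 1 was called, Cox16 (-0.28 ± 0.07, adjusted p = 0.0084 by limma), which helps to insert copper-bearing COX2 and was lower at 2 weeks too (-0.31 ± 0.07, adjusted p = 0.0038). Sdhaf2, needed to attach the flavin to Sdha, was called lower at 2 weeks (-0.33 ± 0.10, adjusted p = 0.040). Several of the 23 are also members by name. Among 16 carriers and channels 3 were called lower at 8 weeks, the dicarboxylate carrier Slc25a10 (-0.33 ± 0.08), the oxoglutarate carrier Slc25a11 (-0.28 ± 0.06) and the aspartate-glutamate carrier Slc25a13 (-0.43 ± 0.10), and 1 higher, Ucp2 (0.36 ± 0.11, adjusted p = 0.029 by limma).

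Among regulators 2 genes were called at 2 weeks and 1 at 8 weeks. Of 13 genes that control mitochondrial biogenesis or mitochondrial gene expression, Esrra (0.36 ± 0.10, adjusted p = 0.028 by limma) and Esrrb (0.34 ± 0.10, adjusted p = 0.041), both estrogen-related receptors, were called higher at 2 weeks. At 8 weeks 1 was called, the mitochondrial deacetylase Sirt3, which was lower (-0.33 ± 0.09, adjusted p = 0.016). The coactivator Ppargc1a had -0.27 at 2 weeks and was not called. Of 42 genes of the mitochondrial ribosome and import, 28 lay above 0 at 2 weeks and 14 at 8 weeks. At 2 weeks 2 were called higher (Timm13, Mrpl23) and 1 lower (Tomm70), and at 8 weeks 2 were lower (Mrpl15, Mrps2).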

How the data were processed

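Kidney RNA of 24 rats, 1 array each, was measured on an Affymetrix rat array. The authors deposited intensity values, which are MAS5 signals per the submitters' processing notes; version and scaling target are not given in the sources used here. The mean without the lowest and highest 2% was 149.498 to 149.954 on every array, so arrays had been scaled alike. Signals without the 57 control probe sets were taken as log2(signal + 7.21), 7.21 being 0.1 times the median of the array medians. All 24 arrays entered 1 model of group means (limma 3.58.1 under R 4.3.3; lmFit, then contrasts.fit and eBayes with a trend; two-sided), tested first on simulated data, for 5 comparisons: diet at 2 and 8 weeks, their interaction, and time on each diet. Alternatives were other pseudocounts, scalings, filters, variance settings, array weights, covariates (spike-ins, GAPDH 3' to 5' ratio, a fat index), a replicate block, only the groups compared, and arrays left out. Replicate numbers did not pair animals. Members and lists were chosen with earlier results of these data known. Members named were those encoded in mitochondria, those called (up to 12 per diet comparison, 6 otherwise), complex II, isoform pairs, disagreeing probe sets and the largest difference of each complex; other genes with values were chosen after these were seen. Gene names came from the platform annotation, promoters from RefSeq (GRCr8). The number of arrays limits precision. The p-values judge group differences against the spread between animals, pooled over the groups and moderated across probe sets.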

Additional observations from a re-analysis of the deposited data

Results flagged for a closer look

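Values of single animals that lay far from the other 5 of their group were looked for by the gap to the nearest value over the whole range; this was met in 9 of 116 groups searched, and chance alone gives about 1 in 20. COX1 was 8425.2 in normal-diet animal 5 at 8 weeks, where the others ran from 3154 to 4255, and the mitochondrially encoded level of that array was 0.69, against -0.26 to 0.09 in the others. The same animal had the highest Sdhc of its group, 2016.7 against 1674 to 1792. On the 8-week salt-fat arrays COX2 was 6503.2 in animal 5 (others 7276 to 7584), Sdhc was 2118.9 in animal 6 (others 1371 to 1609), and the complex I level was 0.088 in animal 2 (others -0.10 to -0.04). Normal-diet animal 1 at 2 weeks stood apart in Ndufs7 (942.2, others 840 to 871), Sdhb (2096.7, others 1650.5 to 1781) and Cox4i2 (27.2, others 51.8 to 61.0). COX1 was the member whose diet difference itself differed between 2 and 8 weeks, by 1.72 (adjusted p = 0.000306 by limma).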

How the results depend on the processing

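The number of members called was the least stable value. Against 5 at 2 weeks and 3 at 8 weeks, it was 10 and 4 after quantile normalization, 1 and 1 with arrays centred on their median, 2 and 1 without a filter, 1 and 1 without the variance trend, and 3 and 1 with the replicate number as a block. The pairing is by number only: of 36 same-numbered pairs 5 had a correlation of deviations over 0.1 (-0.15 to 0.16), and 6 of 24 arrays correlated best with their own number. With only the groups compared it was 1 at 8 weeks and 1 for time on the salt-fat diet (3 in the fit to all groups, 6 after quantile normalization), and at 2 weeks it was 1 with each of the covariates. With the spike-in level 0 were called for the interaction. Leaving out single arrays gave 1 to 7 at 2 weeks, 0 to 4 at 8 weeks, and 1 to 7 for time on the salt-fat diet.

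Medians by complex moved as follows. Quantile normalization gave 0.080 for complex IV at 2 weeks (from -0.086) and, for the interaction, -0.13, -0.12 and -0.15 for complexes III, IV and V (from -0.05, 0.03 and -0.01) and 0.79 for the mitochondrially encoded pair (from 1.03). The spike-in covariate gave 0.010 for complex IV and -0.48 for the pair at 2 weeks (from -0.76), -0.068 for complex IV at 8 weeks (from 0.0080), and for the interaction -0.16, -0.12, -0.058, -0.15 and 0.54 for complexes II, III, IV, V and the pair. The GAPDH ratio gave 0.0058 for complex III at 2 weeks (from 0.083) and 0.074 for complex V in the interaction.

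Signs that turned were all of values not called. With quantile normalization these were Atp5f1b (0.0039), Cox8a (0.12), Cox4i1 (0.055), Sdhd (0.039) and Sdhb (0.062) at 2 weeks, and Cox8a (-0.014) and Cox4i1 (-0.015) at 8 weeks. With the spike-in covariate they were Sdhb at 2 weeks (0.10), COX2 (-0.16), Cox8a (-0.068) and Cox4i1 (-0.061) at 8 weeks, COX2 in the interaction (-0.093), COX2 (0.088) and COX1 (0.049) over time on the normal diet, and COX2 over time on the salt-fat diet (-0.0051). The fat index turned Cox4i2 at 2 weeks (0.034), array weights Cox4i1 at 8 weeks (-0.0097), and leaving out both 8-week control arrays 1 and 2, whose lowest signals stand apart, COX2 (-0.081), Cox8a (-0.024) and Cox4i1 (-0.085) at 8 weeks. Left-out arrays turned Sdhb (-0.059 to 0.028) and Cox6a1 (-0.029 to 0.042) at 2 weeks and Cox4i1 (-0.048 to 0.045), COX2 (-0.037 to 0.10), Cox6a1 (-0.064 to 0.0074), Sdhb (-0.071 to 0.016) and Cox6b1 (-0.069 to 0.0098) at 8 weeks. The causes were not tested.

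Over all probe sets the calls fell from 892 at 2 weeks to 482, 314 and 233 with the spike-in level, the GAPDH ratio and the fat index, from 933 at 8 weeks to 497 with the spike-in level and 542 without normal-diet arrays 1 and 2, and from 39 for the interaction to 0, 4 and 13 with the same covariates (80 with array weights). For time on the salt-fat diet 360 became 634 with array weights and 223 with only the groups compared, and for time on the normal diet 4 became 0 to 9. Single arrays left out gave 598 to 986, 543 to 1120, 22 to 50, 0 to 10 and 220 to 507 for the 5 comparisons, the lowest without salt-fat animals 2 at 2 weeks and 1 at 8 weeks for the diet comparisons. Signals near the lower limit of the array, as of the isoform genes below the filter, limit what could be seen.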
